A study of Mus musculus with 8 samples.

Results

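The CD209 lectins were measured in epididymal fat of lean mice, obese mice and obese mice given 1 of 2 angiotensin receptor blockers. They comprise 5 genes, Cd209a, Cd209b, Cd209d, Cd209f and Cd209g. Members were chosen as every probe set whose only gene symbol in the array annotation is one of these names, which gave 6 of the 45101 probe sets on the array, 2 of them for Cd209b. All 6 passed the filter on low signal, and the 5 genes are among 11232 genes tested. The genes were selected on their signal in high-fat diet against chow, where members were among the larger falls, so the values of that comparison are given for them as a description, with no test.

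CD209 proteins are C-type lectins that span the membrane of dendritic cells and macrophages and bind mannose- and fucose-containing glycans on pathogens and on host glycoproteins in a calcium-dependent way. Humans have DC-SIGN and its close relative, whereas the mouse carries a cluster of related genes: Cd209b encodes SIGN-R1, best known from marginal zone macrophages of the spleen, Cd209d encodes SIGNR3, Cd209a is expressed by monocyte-derived dendritic cells, and Cd209f and Cd209g are further members. In fat and other connective tissues, CD209 transcripts are known from resident macrophages, and IL-4 induces DC-SIGN in cultured human monocytes.

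The mice were male C57BL/6J, bought at 6 weeks of age. Chow mice ate a diet with 10% of its calories from fat and HFD mice a high-fat diet with 30%, in each case for 24 weeks. HFD mice then received telmisartan or candesartan in the drinking water, at about 3 mg/kg/day, or no drug, for 5 further weeks. The 3 HFD groups thus share the diet. No such further period is given for the chow mice, so age and time on diet may differ between chow and HFD groups. Each group had 2 mice with 1 array each, named mouse 1 and mouse 2 below, which do not correspond between groups. Both drugs block the angiotensin II type 1 receptor and share a biphenyl group and a benzimidazole ring. Telmisartan carries a carboxylic acid on the biphenyl and an added benzimidazole ring, whereas candesartan carries a tetrazole there, and telmisartan is also known as a partial agonist of PPARgamma. The title of the study names adipose tissue macrophage polarization under telmisartan as its question.

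The trimmed mean deposited signal of the arrays ran from 178 to 263. It was 263 and 233 in chow and 212 and 178 in telmisartan mice. After scaling to a common trimmed mean, 18.6% to 22.4% of the probe sets lay at or under the floor of 6.68. Adipocyte markers were measured on every array, with a summed signal over 10 genes of 86600 to 109000, and none of the 8 markers of epididymis and testis on the array passed the filter (summed signal 68.2 to 202). Signals below are scaled signals on the linear scale of the deposited values, and differences are on the log2 scale. Signals of different probe sets are not compared, since probes differ in how brightly they hybridize. In whole tissue, fewer cells of a type and less RNA per cell cannot be told apart.

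The 5 genes lie together on chromosome 8. In the order of the RefSeq annotation (GRCm38.p6) they run Cd209a, Cd209e, Cd209d, Cd209b, Cd209c, Cd209f, Cd209g, with Clec4g and Fcer2a before them and Evi5l after them. All 5 were found in the RefSeq table of start regions, which holds 250 bases before and 50 bases after each start site. These are shown because the members moved together on the arrays, and because they show which members are near copies at their starts. Each is given 5′ to 3′ on the strand of its gene. In Cd209a, Cd209b and Cd209d the capitals mark the letters CTCTTCC, and in Cd209f and Cd209g they mark the longest run the members share.
Cd209a: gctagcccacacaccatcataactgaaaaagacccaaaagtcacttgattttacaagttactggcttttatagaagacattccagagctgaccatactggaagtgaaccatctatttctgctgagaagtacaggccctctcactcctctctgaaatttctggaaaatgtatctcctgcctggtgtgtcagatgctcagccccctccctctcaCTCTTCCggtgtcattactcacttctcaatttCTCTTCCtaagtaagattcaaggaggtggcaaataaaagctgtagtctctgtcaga
Cd209b: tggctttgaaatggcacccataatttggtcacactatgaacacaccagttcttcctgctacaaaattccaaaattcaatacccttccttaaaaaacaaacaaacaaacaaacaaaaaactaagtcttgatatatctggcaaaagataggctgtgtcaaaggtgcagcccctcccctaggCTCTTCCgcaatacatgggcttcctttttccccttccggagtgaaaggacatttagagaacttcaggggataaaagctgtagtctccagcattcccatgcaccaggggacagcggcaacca
Cd209d: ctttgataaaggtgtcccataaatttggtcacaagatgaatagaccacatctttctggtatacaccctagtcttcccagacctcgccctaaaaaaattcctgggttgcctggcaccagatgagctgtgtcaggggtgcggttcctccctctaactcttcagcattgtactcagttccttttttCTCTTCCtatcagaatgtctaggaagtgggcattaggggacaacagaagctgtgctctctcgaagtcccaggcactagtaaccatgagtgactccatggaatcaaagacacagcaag
Cd209f: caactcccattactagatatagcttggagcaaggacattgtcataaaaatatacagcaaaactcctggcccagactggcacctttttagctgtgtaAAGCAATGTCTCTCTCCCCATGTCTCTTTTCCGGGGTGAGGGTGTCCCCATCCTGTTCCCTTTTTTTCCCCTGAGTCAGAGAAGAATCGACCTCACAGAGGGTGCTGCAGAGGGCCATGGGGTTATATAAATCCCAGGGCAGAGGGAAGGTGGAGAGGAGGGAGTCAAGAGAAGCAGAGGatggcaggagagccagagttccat
Cd209g: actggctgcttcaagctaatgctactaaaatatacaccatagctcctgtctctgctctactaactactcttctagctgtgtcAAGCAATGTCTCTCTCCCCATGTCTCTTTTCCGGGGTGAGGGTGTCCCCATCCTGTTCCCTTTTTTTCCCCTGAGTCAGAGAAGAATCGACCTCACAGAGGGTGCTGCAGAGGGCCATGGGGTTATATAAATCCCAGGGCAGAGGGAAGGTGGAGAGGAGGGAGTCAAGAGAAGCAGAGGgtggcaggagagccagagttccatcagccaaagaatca
The Cd209a stretch is chr8:3748935-3749234 on the minus strand, that of Cd209b is chr8:3926792-3927091 (minus), that of Cd209d is chr8:3878450-3878749 (minus), that of Cd209f is chr8:4105715-4106014 (minus) and that of Cd209g is chr8:4134486-4134785 (plus).

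Cd209f and Cd209g, neighbours on opposite strands, share an unbroken run of 180 bases, which lies from -154 to 26 in Cd209f and from -168 to 12 in Cd209g, counted from the start site at 1. Over the 300 bases, 258 (86.0%) were identical between them in a global alignment. In the other 9 pairs the longest shared run was 7 to 17 bases, and at most 61.7% of the bases were identical. Whether the probe sets of such similar genes also detect each other's transcripts was not tested.

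Motifs were searched on both strands. The letters CTCTTCC occurred in the start regions of Cd209a, Cd209b and Cd209d and in 11.2% of all 32851 start regions of the table. The Ets-type core TTCCGG occurred in those of Cd209a, Cd209b, Cd209f and Cd209g and in 14.9% of all, overlapping CTCTTCC at 1 place in Cd209a. TATAAA was found in Cd209a, Cd209f and Cd209g and in 13.6% of all, and the AP-1-type TGANTCA in Cd209f and Cd209g, within their shared run, and in 7.81% of all. The STAT6-type site, TTC and GAA with 4 bases between them, was in none of the 5 and in 6.95% of all.

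The members were brightest in lean fat and dim in obese fat. Cd209d, SIGNR3, gave signals of 495 and 412 in the chow mice and of 95.9 and 66.5 in the HFD mice, a mean of 453 ± 59 (SD, n = 2) against 81.2 ± 20.8. Cd209g gave 581 and 675 in chow and 152 and 121 in HFD. Cd209f gave 1500 and 1720 in chow and 526 and 382 in HFD. In these 3 genes the dimmer chow mouse lay at least 2.86-fold above the brighter HFD mouse.

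Cd209b was measured by 2 probe sets. The brighter of them, used for the gene, read 201 and 267 in chow and 80.1 and 58.1 in HFD. The other read 165 and 184 in chow and 45.1 and 47.6 in HFD, so both probe sets ordered the groups alike. Cd209a, the member of monocyte-derived dendritic cells, had the smallest difference, with 278 and 266 in chow and 111 and 94.3 in HFD. On the HFD arrays the 5 genes kept 14.7% to 40.7% of their chow mean.

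**Figure D1:**
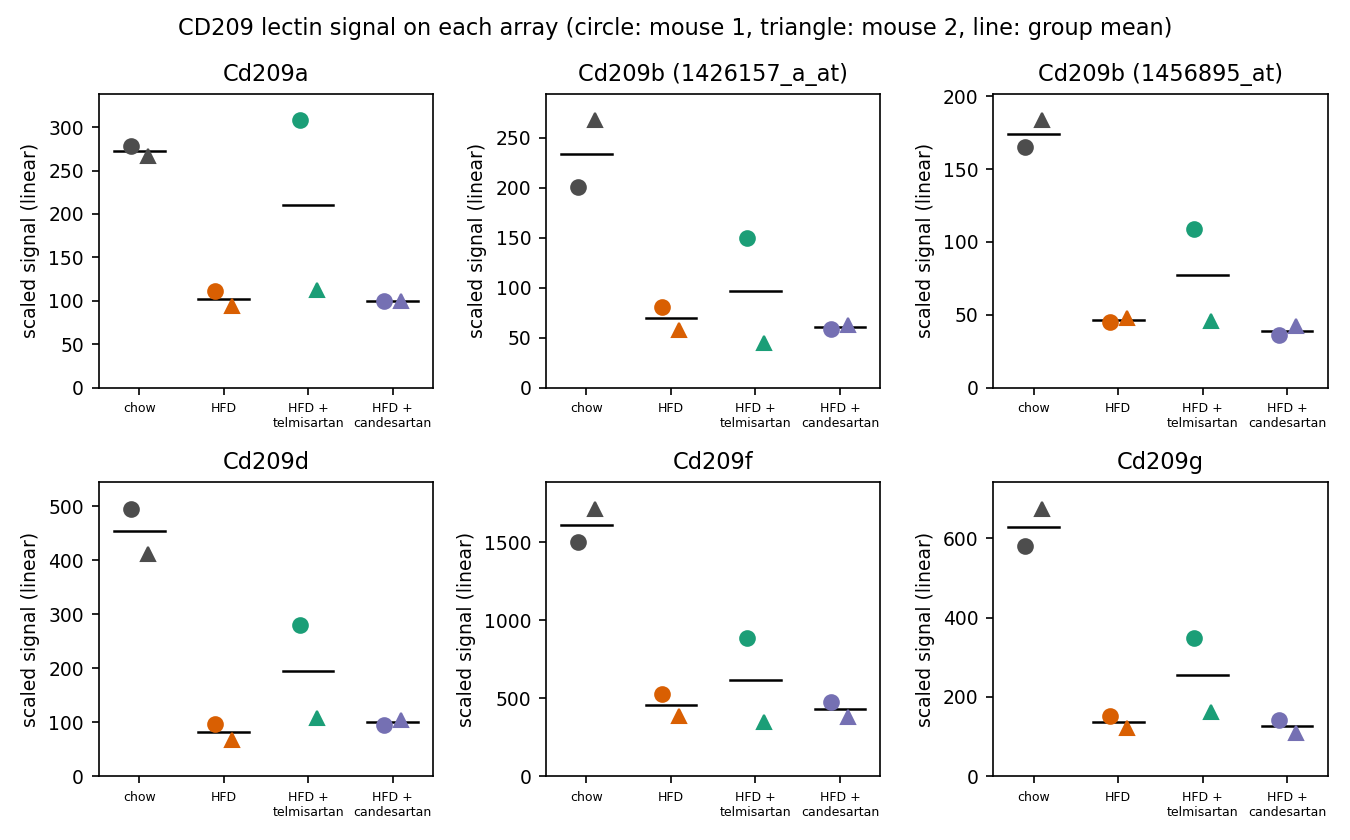
Scaled signal on a linear axis from 0 for the 6 probe sets of the 5 CD209 genes, with 1 panel for each probe set; circles are mouse 1, triangles mouse 2 and lines the group mean of 2 arrays. All panels show both chow mice above both HFD and both candesartan mice, and telmisartan mouse 1 above telmisartan mouse 2, as in Cd209d with 279 and 108.

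The log2 differences of HFD minus chow were -2.50 for Cd209d (95% confidence interval -3.40 to -1.60), -2.21 for Cd209g (-2.96 to -1.46), -1.84 for Cd209f (-2.70 to -0.98), -1.76 for Cd209b (-2.88 to -0.64) and -1.41 for Cd209a (-2.30 to -0.53). As folds, Cd209d was 5.65 times, Cd209g 4.63 times, Cd209f 3.58 times, Cd209b 3.40 times and Cd209a 2.66 times as bright in chow. In all 5 genes the 2 groups did not overlap, in a comparison where 30.4% of all genes tested lay lower on HFD without overlap. The median over the members was -1.84 and that over all genes -0.0139. This contrast chose the members, so nothing is read from these values.

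No CD209 gene passed the test between a drug group and untreated HFD. Telmisartan mouse 1 had high signals and telmisartan mouse 2 had signals near those of the untreated HFD mice. Cd209a read 308 in telmisartan mouse 1 and 113 in mouse 2. Cd209d read 279 and 108, and Cd209g 349 and 162.
Cd209f read 885 in mouse 1 and 348 in mouse 2, and Cd209b read 150 and 44.2 on the probe set used for it and 109 and 45.7 on the other. Expressed against the chow mean, mouse 1 stood at 113% for Cd209a and at 55.1% to 64.7% for the other 4 genes, and mouse 2 at 19.1% to 41.3% for the 5. In Cd209a, Cd209d and Cd209g both telmisartan mice lay above both HFD mice. In Cd209f, and in Cd209b on the probe set used for it, mouse 2 lay below both HFD mice. On the other Cd209b probe set mouse 2, at 45.7, lay between the HFD mice at 45.1 and 47.6.

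The differences of telmisartan minus HFD were 1.12 for Cd209d (0.23 to 2.02), 0.87 for Cd209a (-0.02 to 1.75), 0.81 for Cd209g (0.06 to 1.57), 0.31 for Cd209f (-0.55 to 1.16) and 0.26 for Cd209b (-0.86 to 1.38). Their limma adjusted p values (Benjamini-Hochberg over all genes, called at 0.05) ran from 0.766 to 0.908. Over all genes limma called 0 of 11232 in this comparison (0%), with 6.2% at an unadjusted p under 0.05. Arrays did not overlap in 3 of 5 members, with telmisartan higher, where 18.5% of all genes lay higher without overlap. The other Cd209b probe set stood at 0.61 (-0.26 to 1.47), with arrays that overlapped. The HFD arrays are the ones on which the members were chosen as low.

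The telmisartan values rested on mouse 1. The median difference over the members was 0.81 with both mice, 0.14 without mouse 1 and 1.37 without mouse 2. Without mouse 1 the difference was -0.63 for Cd209b, on the probe set used for it, and -0.37 for Cd209f. These had the other sign from those with both mice. The 2 telmisartan mice differed by 1.11 (Cd209g) to 1.76 (Cd209b) on the log2 scale, and 0.597% (Cd209b) to 3.47% (Cd209g) of all genes differed as much between them. In the other groups the mice of a pair differed by at most 0.53 in these genes (Cd209d, HFD).

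The 2 telmisartan mice also differed in genes outside the family. The summed signal over 8 mesothelial markers was 825 in mouse 1, against 2070 to 4080 on the other 7 arrays. Over 21 pan-macrophage markers it was 66800 in mouse 1 and 102000 in mouse 2. The untreated HFD and candesartan mice lay between them, at 73200 to 83800. Adgre1 read 1740 in mouse 1 and 3500 in mouse 2, with the untreated HFD and candesartan mice between them, at 2170 to 2930. The summed adipocyte signal was 109000 in mouse 1 and 90500 in mouse 2, and it was 107000 in chow mouse 2. The part of these differences in the CD209 values was not tested.

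Over the 332 other genes that were called lower on HFD, the median of telmisartan mouse 1 minus the HFD mean was 0.26 and that of mouse 2 was -0.03. The medians over the 5 CD209 genes were 1.37 and 0.14. The 332 genes were chosen, like the members, as low on the same HFD arrays. The members were included whether called or not, and the size of the falls was not matched between these sets. Their medians are therefore not compared.

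In candesartan mice the members lay near the levels of the untreated HFD mice. Cd209a read 99.9 and 99.4, Cd209d 95.3 and 103, and Cd209g 143 and 109 in the candesartan mice. Cd209f read 476 and 378, and Cd209b 58.2 and 62.9 on the probe set used for it. On those probe sets the candesartan and HFD arrays overlapped in all 5 genes, whereas 33.4% of all genes did not overlap. The other Cd209b probe set read 35.8 and 42.4 in candesartan mice, below its 45.1 and 47.6 in HFD mice, a difference of -0.25 (-1.11 to 0.61).

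Candesartan minus HFD was -0.04 for Cd209a (-0.92 to 0.85), -0.17 for Cd209b (-1.29 to 0.95), 0.31 for Cd209d (-0.58 to 1.21), -0.08 for Cd209f (-0.94 to 0.78) and -0.11 for Cd209g (-0.87 to 0.64). Each had a limma adjusted p of 1, and the intervals still allow changes of up to 1.29 down and 1.21 up. Limma called 0 of 11232 genes (0%), with 1.25% at an unadjusted p under 0.05. The signs of Cd209a, Cd209f and Cd209g turned when the arrays were centred on their medians, to 0.12, 0.07 and 0.04.

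**Figure D2:**
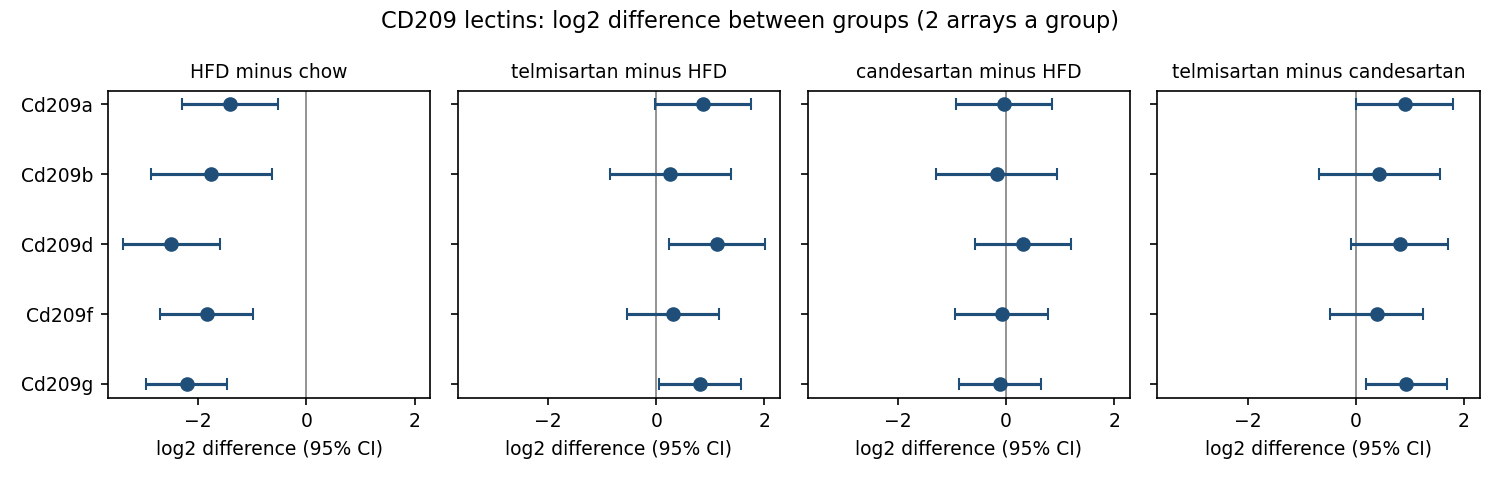
Log2 difference between groups for the 5 CD209 genes, from 2 arrays a group. Points are the limma estimate and bars the 95% confidence interval. The panels show HFD minus chow, each drug minus HFD, and telmisartan minus candesartan. The points of HFD minus chow run from -2.50 to -1.41, those of candesartan minus HFD lie between -0.17 and 0.31, and those of telmisartan minus HFD lie between 0.26 and 1.12.

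The 2 drugs were given at the same dose and for the same time, so they form 1 compound pair, and this comparison uses no array on which the members were chosen. Telmisartan minus candesartan was 0.93 for Cd209g (0.18 to 1.68), 0.90 for Cd209a (0.01 to 1.79), 0.81 for Cd209d (-0.09 to 1.71), 0.43 for Cd209b (-0.69 to 1.55) and 0.39 for Cd209f (-0.47 to 1.24). Limma called 0 of 11232 genes (0%), with 4.89% at an unadjusted p under 0.05, and the members had adjusted p values of 0.923 to 0.946. The arrays of Cd209a, Cd209d and Cd209g did not overlap, with telmisartan higher, as in 15.6% of all genes. The other Cd209b probe set stood at 0.86 (-0.01 to 1.72), also with telmisartan higher without overlap. An exact permutation test of 2 arrays against 2 cannot go below a two-sided p of 0.333. The median difference over the members was 0.81 with all arrays, 0.13 without telmisartan mouse 1 and 1.48 without telmisartan mouse 2. A difference between the drugs in CD209 signal was therefore not shown, and the intervals do not exclude one of 1.79 on the log2 scale.

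Members were chosen as high on the chow arrays used here, which favours falls, so the calls against chow are a description. Against chow, 2 of the 5 members were called lower in telmisartan mice and 3 of the 5 in candesartan mice. In telmisartan mice Cd209f fell by 1.53 (limma adjusted p = 0.0417) and Cd209g by 1.40 (limma adjusted p = 0.0367), in a comparison where 3.46% of all genes were called lower. The values were -1.51 for Cd209b (-2.63 to -0.39), -1.38 for Cd209d (-2.27 to -0.48) and -0.55 for Cd209a (-1.44 to 0.34). Both calls ended when any 1 array other than telmisartan mouse 1 was left out, and without telmisartan mouse 1 all 5 members were called. In the fit without telmisartan mouse 2, Cd209a stood at 0.18, Cd209f at -0.86 and Cd209g at -0.84. Of all genes, 557 were called higher and 389 lower, a split of 629 and 80 with arrays centred on their medians and of 326 and 1719 with no scaling, and the calls of Cd209f and Cd209g were lost with median centring, with no filter, with no variance trend and with only the groups compared.

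In candesartan mice the called members were Cd209g, at -2.33 (-3.08 to -1.57), Cd209d, at -2.19 (-3.08 to -1.29), and Cd209f, at -1.92 (-2.78 to -1.06). Of all genes, 2.12% were called lower. Cd209b stood at -1.94 (-3.06 to -0.82) and Cd209a at -1.45 (-2.34 to -0.56). The other Cd209b probe set stood at -2.16 (-3.02 to -1.29) in a fit of all probe sets. The count of members called was 1 without either chow mouse or candesartan mouse 1, 0 without candesartan mouse 2 and 5 without either telmisartan mouse. Of all genes, 502 were called higher and 238 lower, and 487 and 83 with arrays centred on their medians. Both comparisons use the chow arrays on which the members were chosen as high.

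Ordered by mean log2 signal, all 5 genes ran from chow through telmisartan to the untreated HFD and candesartan groups. The steps from telmisartan to either of the lower groups, and from HFD to candesartan, passed no test in any of the 5. The step from chow to telmisartan uses chow arrays on which the members were chosen as high, so no test is read from it. Cd209d had its lowest mean in HFD, and the other 4 in candesartan.

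The other genes of the cluster were dim and were not tested. Cd209c read 33.1 and 50.8 in chow, 28.2 and 32.8 in HFD, 29.7 and 25.0 in telmisartan and 11.2 and 18.3 in candesartan mice. Cd209e, which lies between Cd209a and Cd209d, read 36.5 and 25.7 in chow, 15.9 and 13.6 in HFD and 36.5 and 14.6 in telmisartan mice, and was under the floor in both candesartan mice. Cd209e therefore also read higher in telmisartan mouse 1 than in mouse 2, at signals under the 40.5 at which probe sets were kept. Fcer2a, the low-affinity IgE receptor, and Clec4g, a liver and lymph node lectin, were likewise below the filter.

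The 7 tested neighbours of the cluster ran from -1.0 for Retn, the adipocyte hormone resistin (-1.76 to -0.24), to 0.53 for Stxbp2 (0.11 to 0.96), and 0 of 7 were called by limma, where 8.15% of all genes were called in either direction. Evi5l, next to Cd209g, stood at -0.42 (-0.86 to 0.02).

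Markers shared by all macrophages rose on HFD, where the CD209 genes were low. Of 21 pan-macrophage markers, 18 rose and none fell, with a median of 1.40 (all genes -0.0139). Cd84 rose by 2.94, Msr1, a scavenger receptor, by 2.77, Mpeg1 by 2.69, Cd68 by 2.35 and Adgre1, which encodes F4/80, by 2.04. Signals of Adgre1 were 621 and 660 in chow and 2630 and 2630 in HFD. The count that rose was 8 without either HFD mouse, 10 without chow mouse 1 and 5 without the filter on low signal. Of 14 markers of lipid-laden macrophages, 11 rose and none fell (median 1.93), among them Atp6v0d2 by 5.44, Mmp12 by 5.36, Gpnmb by 5.12 and Trem2 by 4.45. In all genes tested, 5.16% were called higher.

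Markers of resident perivascular macrophages were split. Over all genes 2.98% were called lower and 5.16% higher, with a median of -0.0139. Of 20 resident markers tested, 6 fell, 1 rose and the median was -0.20. The hemoglobin scavenger receptor Cd163 fell by 1.68, the galactose-type lectin Mgl2 by 1.59, the chemokine Ccl24 by 1.59, Retnla by 1.58, the hyaluronan receptor Lyve1 by 1.52 and the ficolin Fcna by 1.40, and the platelet factor Pf4 rose by 0.71. Cd163 read 778 and 1290 in chow, 437 and 222 in HFD, 587 and 475 in telmisartan and 317 and 379 in candesartan mice, with all chow values above all others.

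The other 13 resident markers passed in neither direction. Timd4 stood at -0.98, Cbr2 at -0.93, F13a1 at -0.65 and Ednrb at -0.40, whereas Clec10a was at 0.00, Gas6 at 0.16, Selenop at 0.18, Igf1 at 0.18, Ltc4s at 0.41, Folr2 at 0.48, Vsig4 at 0.51, the mannose receptor Mrc1 at 0.60 and Stab1 at 0.79. Mrc1 read 1090 and 1770 in chow and 2350 and 1880 in HFD, so that it was not low where the CD209 genes were. The count of resident markers that fell was 3 without chow mouse 2, 4 without HFD mouse 1, 2 without HFD mouse 2 and 1 without the filter on low signal. The calls of Fcna and Retnla held with any 1 array left out, and only that of Fcna also held without the filter. The call of Cd163 ended without chow mouse 2 or HFD mouse 2, and that of Lyve1 without HFD mouse 2. That of Ccl24 ended without chow mouse 2 or either HFD mouse. The call of Mgl2 ended without any 1 of the chow, HFD or candesartan mice. That of Pf4 ended without chow mouse 1 or either HFD mouse, and with median centring, no scaling or no variance trend.

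**Figure D3:**
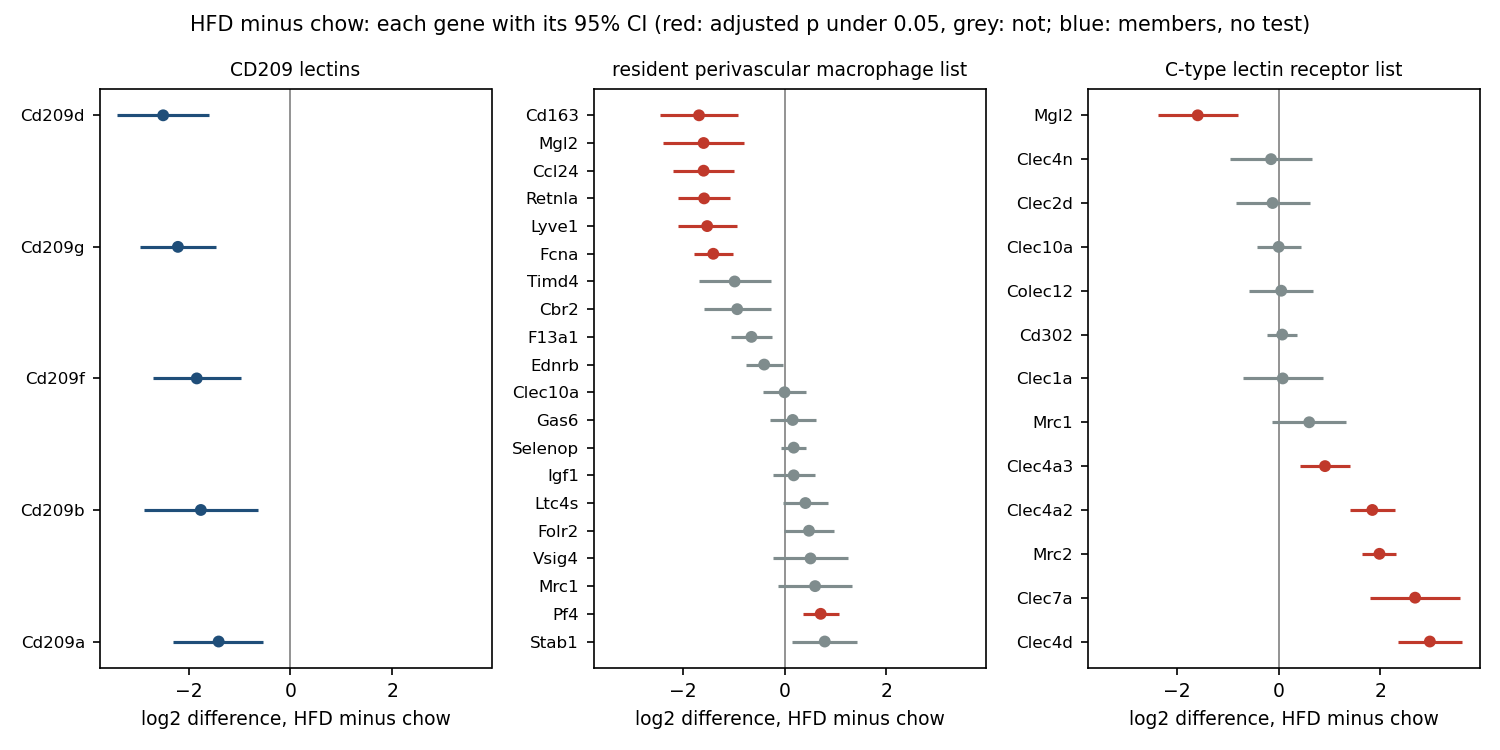
Log2 difference of HFD minus chow with its 95% confidence interval for the 5 CD209 genes (blue, no test), the 20 resident perivascular macrophage markers and the 13 C-type lectin receptors; red marks an adjusted p under 0.05 and grey the rest. The CD209 points all lie below -1.40, the resident markers run from -1.68 (Cd163) to 0.79 (Stab1), and the lectin receptors from -1.59 (Mgl2) to 2.97 (Clec4d).

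Among 13 other C-type lectin receptors of macrophages and dendritic cells, 5 rose, 1 fell and the median was 0.08. The shares over all genes were 5.16% called higher and 2.98% called lower. Clec4d, a receptor for mycobacterial glycolipid, rose by 2.97, the beta-glucan receptor Clec7a (dectin-1) by 2.68, the collagen receptor Mrc2 by 1.98, Clec4a2 by 1.84 and Clec4a3 by 0.91, and Mgl2 fell by 1.59. Clec4n stood at -0.15, Clec2d at -0.12, Clec10a at 0.00, Colec12 at 0.05, Cd302 at 0.07, Clec1a at 0.08 and Mrc1 at 0.60. The count that rose was 3 without either HFD mouse. The call of Clec4a3 ended without any 1 of the chow, HFD or candesartan mice, and that of Clec7a without either HFD mouse.

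Mgl2 and Clec10a are neighbouring paralogs that encode galactose-type lectins, both on the lists above. Mgl2 read 569 and 563 in chow, 209 and 169 in HFD, 543 and 224 in telmisartan and 152 and 138 in candesartan mice. Like the CD209 genes, it was high in chow and in telmisartan mouse 1. Clec10a read 1240 and 1530 in chow, 1610 and 1170 in HFD, 2040 and 2460 in telmisartan and 1320 and 1510 in candesartan mice, with both telmisartan mice above all others. Retnla, an IL-4-induced secreted protein, read 10900 and 11600 in chow, 4700 and 3000 in HFD, 8230 and 6350 in telmisartan and 4280 and 3220 in candesartan mice. In none of the comparisons of a drug with HFD or of the 2 drugs was a gene of any list called.

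On HFD, 5.16% of all genes were called higher and 2.98% lower. Of 13 tested genes for DC-SIGN ligands and signalling, 3 rose, none fell and the median was 0.11. The rises were in both chains of the complement receptor integrin, Itgb2 by 1.83 and Itgam by 1.30, and in the kinase Syk by 1.80. The ligands Icam1, Icam2 and Ceacam1 stood at 0.42, -0.52 and 0.11, and the signalling genes Lsp1, Ksr1 and Rela at -0.11, -0.21 and 0.08. Itgb2 was called with any 1 array left out, Itgam ended without either chow or either HFD mouse, and Syk ended without HFD mouse 1.

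Of 15 genes for IL-4 and CSF inputs and macrophage transcription factors, 5 rose and 1 fell, with a median of 0.50. Again, 5.16% of all genes were called higher and 2.98% lower. Egr2 rose by 2.85, the lineage factor Spi1 by 1.76, Csf2ra by 1.58, Irf8 by 1.19 and Csf1r by 0.60, and Pparg fell by 0.81. The IL-4 receptor chain Il4ra stood at 0.10, Stat6, the factor it activates, at 0.14 and Klf4 at -0.31. Egr2 and Spi1 were called with any 1 array left out, and Csf2ra lost its call without HFD mouse 2. Of the other 3, Irf8 lost its call without chow mouse 2 or either HFD mouse, Csf1r without chow mouse 1, either HFD or either candesartan mouse, and Pparg without either chow or either HFD mouse. The count that rose was 3 without HFD mouse 1 and 2 without HFD mouse 2.

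Markers of other cell types were given the same counts, beside 5.16% of all genes called higher and 2.98% called lower. Of 16 markers of monocyte-derived and conventional dendritic cells, 2 rose, Itgax (CD11c) by 3.10 and Irf8 by 1.19, and none fell (median 0.43). Of 5 B cell markers 2 rose, Cd22 by 2.69 and Blnk by 2.61 (median 1.74), and of 7 T and NK cell markers 1 rose, Il7r by 4.02 (median 0.78). Of 10 adipocyte markers 2 fell, the glucose transporter Slc2a4 by 1.70 and Pparg by 0.81 (median -0.15). Without HFD mouse 1, 1 dendritic cell, 1 B cell and 0 adipocyte markers were called, without HFD mouse 2, 1 of each, and without chow mouse 1, 1 B cell and 1 adipocyte marker. Without chow mouse 2, 1 adipocyte marker was called, and without either telmisartan mouse 6 dendritic cell markers. Of 8 mesothelial markers 0 were called (median 0.02), of 2 lymph node markers 0 (median 0.73), with summed signals of 196 to 483 over the 5 such genes on the array.

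Endothelial markers were split between those that fell on HFD, where 2.98% of all genes were called lower, and those that passed no test. Of 5 lymphatic endothelial markers 4 fell, Mmrn1 by 1.95, Reln by 1.77, Lyve1 by 1.52 and Flt4 by 1.0, and the median was -1.52, with podoplanin (Pdpn) at 0.22. Lyve1 stands on this list and on that of resident macrophages. The summed signal over the 6 lymphatic markers on the array was 2250 and 2510 in chow and 1400 to 1640 on the other 6 arrays, telmisartan mouse 1 included at 1570. The count that fell was 1 without chow mouse 2 or HFD mouse 1, and 0 without HFD mouse 2 or without the filter on low signal. Of 10 blood endothelial markers 5 fell (median -0.59), among them Tie1 by 0.97 and Kdr by 0.72, and the count was 0 without either HFD mouse, 1 without either candesartan mouse and 2 without chow mouse 1. It was also 0 without the filter, 2 with median centring, with no scaling or with no variance trend, and 3 with only the groups compared. Their summed signal was 9200 and 8200 in chow and 4920 to 5920 elsewhere. The part of these cell types in the CD209 signal was not tested.

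**Figure D4:**
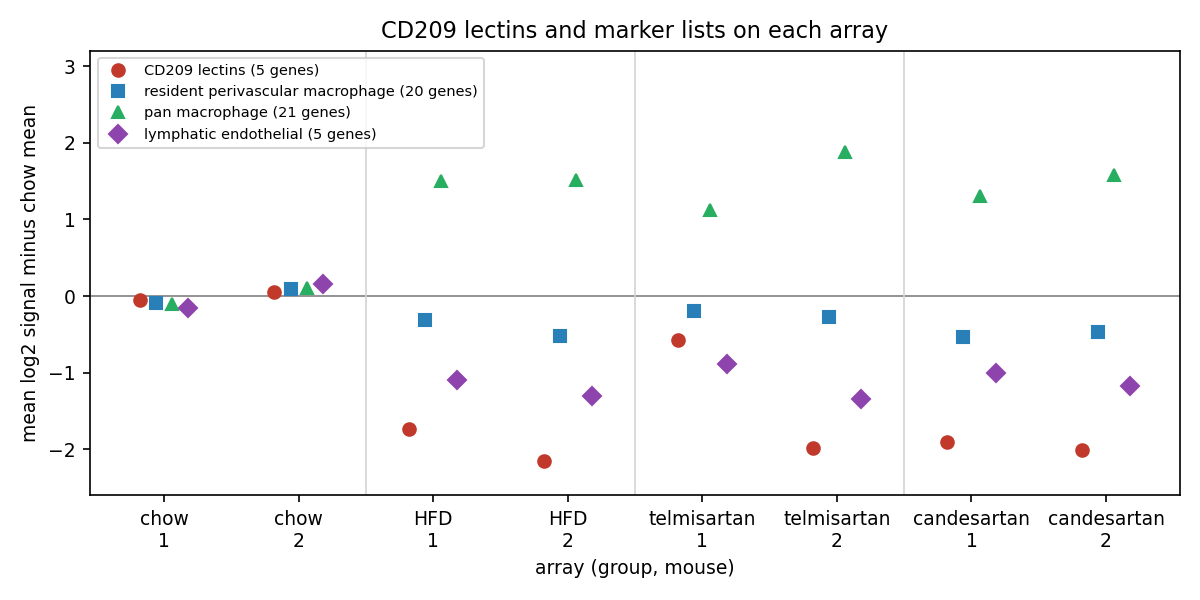
Mean log2 signal over the tested genes of 4 lists, minus the chow mean, on each of the 8 arrays. The 5 CD209 genes stand at -1.74 and -2.15 in HFD, -0.57 and -1.98 in telmisartan and -1.91 and -2.01 in candesartan mice, while the pan-macrophage markers lie between 1.12 and 1.88 on all 6 HFD arrays.

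Across the 8 arrays the members tracked each other, with a Pearson r of log2 signal from 0.906 (Cd209a with Cd209f) to 0.983 (Cd209b with Cd209f). These correlations are a description over 8 arrays that share the large step between chow and HFD. The 5 genes most like the mean profile of the members, of 11227 others, were Nudt5, a nucleotide sugar hydrolase (r = 0.991), Gmds, the first enzyme of GDP-fucose synthesis (r = 0.988), the estrogen receptor Esr1 (r = 0.984), the mitochondrial ribosomal gene Mrpl51 (r = 0.982) and the glutathione transferase Gstp1 (r = 0.981). Their own HFD minus chow differences were smaller than those of the members, at -0.83 for Nudt5, -0.51 for Gmds, -0.92 for Esr1, -0.46 for Mrpl51 and -0.39 for Gstp1. These genes were picked for following a profile that holds the step between chow and HFD, so their differences are a description, with no test.

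For single members, the most alike genes were Ndufaf3 with Cd209a (r = 0.987), Npdc1 with Cd209b (r = 0.991), Nudt5 with Cd209d (r = 0.986), Syt12 with Cd209f (r = 0.990) and Gmds with Cd209g (r = 0.996). Nudt5 was among the 5 most alike for Cd209d, Cd209f and Cd209g, and Amhr2 and Tex2 for Cd209f and Cd209g. Of the resident macrophage and lectin genes, Ccl24 stood at rank 22 (r = 0.966) and Mgl2 at rank 32 (r = 0.959), followed by Fcna (r = 0.943), F13a1 (r = 0.936), Lyve1 (r = 0.929), Retnla (r = 0.921), Cbr2 (r = 0.905) and Cd163 (r = 0.896). Other genes of the same lists ran the other way over the 8 arrays. Among resident markers these were Stab1 (r = -0.916), Pf4 (r = -0.819), Vsig4 (r = -0.75), Folr2 (r = -0.747), Selenop (r = -0.725) and Mrc1 (r = -0.688). Among lectin receptors they were Clec7a (r = -0.944), Clec4d (r = -0.902), Clec4a2 (r = -0.892), Mrc2 (r = -0.883) and Clec4a3 (r = -0.724). Clec10a stood at -0.045, and Adgre1 (r = -0.933) and Itgax (r = -0.947) also ran the other way.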

How the data were processed

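Total RNA from whole epididymal fat was hybridized to 1-colour Affymetrix arrays, 1 array per mouse. The authors deposited 1 linear intensity for each probe set, computed in the array maker's GeneChip software per the series design text; the scaling and algorithm version are not stated in the labels. The table had 0 columns of other samples. Of 45101 probe sets, 64 controls were left out, 34945 had 1 gene symbol in the annotation, 932 had several and 9160 none. Signals were brought to the same 2%-trimmed mean on every array, set to a floor at the 20th percentile and put on the log2 scale. Probe sets whose mean reached the 50th percentile stayed in, and the brightest per gene was tested (11232 genes) with limma 3.58.1 in R 4.3.3: 4 group means, 4 residual degrees of freedom, a variance trend, two-sided tests and Benjamini-Hochberg adjustment over all genes at 0.05. The script was tested on simulated data. With 2 arrays per group the median 95% confidence interval reached 0.435 to each side, and p-values measure only the spread between these mice.

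The members and gene lists were chosen with earlier results of these data known. Named are all members, the 5 genes most correlated with each member and with their mean, all tested genes of the resident macrophage and lectin lists, up to 5 called genes by size of the others, and Adgre1, Itgax, Cd163, Mrc1, Clec10a, Mgl2, Retnla and Lyve1. Unchanged genes of the DC-SIGN, IL-4 and endothelial lists, Cd209c, Cd209e and the neighbours were named after their values were seen. The replicate numbers were checked as pairs: the differences between mice 1 and 2 correlated between groups at -0.041 to 0.206 over all genes, which does not pair them. Alternatives covered scaling, floor, filter, variance model, samples fitted, probe set choice, a replicate block and each array left out. Start regions are from RefSeq (GRCm38.p6), all 5 symbols matched.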

Additional observations from a re-analysis of the deposited data

How the results depend on the processing

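All comparisons against chow use the chow arrays on which the members were chosen as high, so a kept direction is no support. The direction of every member against chow held under the 12 other settings, of which the filter at the 70th percentile tested 3 members. With 1 array left out it held too, except Cd209a in telmisartan minus chow, which ranged from -1.27 to 0.18. The count of genes called for HFD minus chow was 572 with median centring and 173 with no filter, for telmisartan minus chow 2045 with no scaling, 329 with no filter and 198 with only the groups compared, and for candesartan minus chow 162 with no filter. With no filter 4, 6 and 6 genes were called for telmisartan minus HFD, candesartan minus HFD and telmisartan minus candesartan, and with no scaling 1 for the last. With no filter 0 of the 5 members were called against chow in either drug group, and with median centring, no variance trend or only the groups compared 0 were called for telmisartan minus chow. Leaving out 1 array gave 165 to 1616 calls for HFD minus chow, 530 to 1688 for telmisartan minus chow and 117 to 1316 for candesartan minus chow. It gave member medians of 0.14 to 1.37 for telmisartan minus HFD, 0.13 to 1.48 for telmisartan minus candesartan and -2.06 to -0.69 for telmisartan minus chow.

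Candesartan minus HFD turned sign for Cd209a with quantile normalization (0.06) and, with median centring, for Cd209a (0.12), Cd209f (0.07) and Cd209g (0.04). With 1 array left out it ranged from -0.15 to 0.08 for Cd209a, -0.40 to 0.06 for Cd209b, -0.31 to 0.15 for Cd209f and -0.31 to 0.08 for Cd209g. For telmisartan minus HFD the ranges were -0.63 to 1.14 for Cd209b and -0.37 to 0.98 for Cd209f, and for telmisartan minus candesartan -0.45 to 1.31 and -0.29 to 1.06. The replicate block, whose numbers do not pair the mice, gave 1282 genes for HFD minus chow, 1220 for telmisartan minus chow and 975 for candesartan minus chow, with 3 members called in the second and 5 in the third. Before scaling, the trimmed mean signal was 263 and 233 in chow and 212 and 178 in telmisartan mice. With no scaling the median of all genes moved to -0.38 for telmisartan minus chow. The cause of these shifts was not tested.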
